A study of Homo sapiens with 6 samples.

Results

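The genes followed here were 3 LUC7-like genes (LUC7L, LUC7L2, LUC7L3) and 7 other genes whose proteins carry arginine-rich stretches, most of them alternating with serine (RSRP1, RSRC2, NKTR, SON, ARGLU1, PPIG, PRPF38B). They were chosen by name, with earlier results of these data known, and make up 10 of the 60664 gene IDs in the deposited count table. Each symbol matched 1 gene ID, and all 10 were among the 16102 genes that passed the low-count filter. The knockdown libraries came from HCT-8, an established human line of colorectal cancer cells, transfected with a plasmid carrying a short hairpin RNA against PNISR (shPNISR, 3 libraries). The others came from HCT-8 cells transfected with a control hairpin plasmid (shNC, 3 libraries). Both groups grew in the same serum-supplemented medium, and the labels give neither the time after transfection nor the hairpin sequence. All shPNISR libraries carry the same hairpin label, so an effect of that plasmid on other RNAs and the effect of low PNISR cannot be told apart. By its title the series looks for splicing regulated by PNISR, itself a nuclear protein rich in arginine and serine.

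As background, arginine and serine rich (RS) stretches are low-complexity protein regions that bind one another and are phosphorylated on serine, and they concentrate many splicing proteins in nuclear speckles. LUC7-like proteins are relatives of yeast Luc7p, a component of the U1 small nuclear ribonucleoprotein (snRNP), and help to choose the 5′ splice site. Several genes of this kind are known to keep introns or include exons that stop their own translation, so that part of their RNA does not encode protein. Counts per gene add all such RNAs together, and the use of single introns, exons or isoforms was not measured.

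Total counts ran from 15703210 to 17299847 in shPNISR and from 15049485 to 17977803 in shNC libraries. The labels do not say that libraries came from separate cultures, so each p-value speaks for the spread among these libraries alone, and that spread can be technical. Levels are given as CPM, scaled by library total and TMM factor. In such whole-culture RNA, fewer cells that express a gene and less of its RNA per cell cannot be told apart. PNISR itself stood at 18.5, 20.7 and 27.6 CPM in shPNISR and 55.3, 50.2 and 62.8 CPM in shNC, or 39.7% of its shNC level (log2 fold change -1.33 ± 0.15 SE, edgeR quasi-likelihood test with Benjamini-Hochberg adjustment, adjusted p = 8.73e-05). The library shNC 2 lay apart from the other 2 shNC libraries. Scores on the first principal component were 16.9 to 24.6 in shPNISR libraries, 0.787 in shNC 2 and -35.2 and -31.2 in shNC 1 and shNC 3. Of 10 colon epithelial markers all had counts, and their summed level was 4901 to 6144 CPM in shPNISR and 4376 to 5006 CPM in shNC libraries. KRT20 had 23 reads in all and was not tested. Of the 9 tested, edgeR called CDH17 higher (44.1 CPM in shPNISR, 17.6 in shNC, adjusted p = 5.74e-05) and KRT19 higher (593 and 388 CPM, 0.0365). The summed level of 8 fibroblast markers was 24.6 to 29.0 CPM in shPNISR and 16.2 to 24.8 CPM in shNC, with COL1A2 and FAP at 0, and 6 of the 8 had counts. That of 7 leukocyte markers, 6 of them with counts, was 5.45 to 6.88 CPM in shPNISR and 4.42 to 5.66 CPM in shNC, with PTPRC at 0. That of 5 endothelial markers, 4 of them with counts, was 1.41 to 1.66 CPM in shPNISR and 0.718 to 1.49 CPM in shNC, with TEK at 0. Of the 4 leukocyte markers tested, LYZ, with 72 reads in all, was called lower (0.287 CPM in shPNISR, 1.21 in shNC, edgeR, adjusted p = 0.0337). The part of these marker genes in the results was not tested.

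All 10 genes had a fitted log2 fold change below 0 in shPNISR relative to shNC, and 1, NKTR, passed the test. The number below 0 stayed at 10 under each scaling tried, and was 9 without shNC 1, 8 without shNC 3, 7 without shPNISR 1 and 8 once each library was corrected for the GC content and length of transcripts. The values ran from -0.63 for NKTR to -0.04 for ARGLU1 and PPIG, with a median of -0.24, against a median of -0.01 over all tested genes. Of all tested genes 52.1% had a value below 0, 0.832% were called lower and 2.30% higher at an adjusted p of 0.05. None of the 10 was called higher. NKTR was also the 1 gene of the 10 called lower by DESeq2, against 1.52% of the genes it tested, and by limma voom, against 0.708%. The groups did not overlap, with shPNISR lower, in 3 of the 10 (LUC7L2, NKTR and SON), against 9.58% of all tested genes, and with shPNISR higher in none, against 11.5%. At an unadjusted p under 0.05, 3 of the 10 were lower (NKTR, SON and PRPF38B), against 7.79% of all tested genes, and none was higher, against 9.98%.

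**Figure D1:**
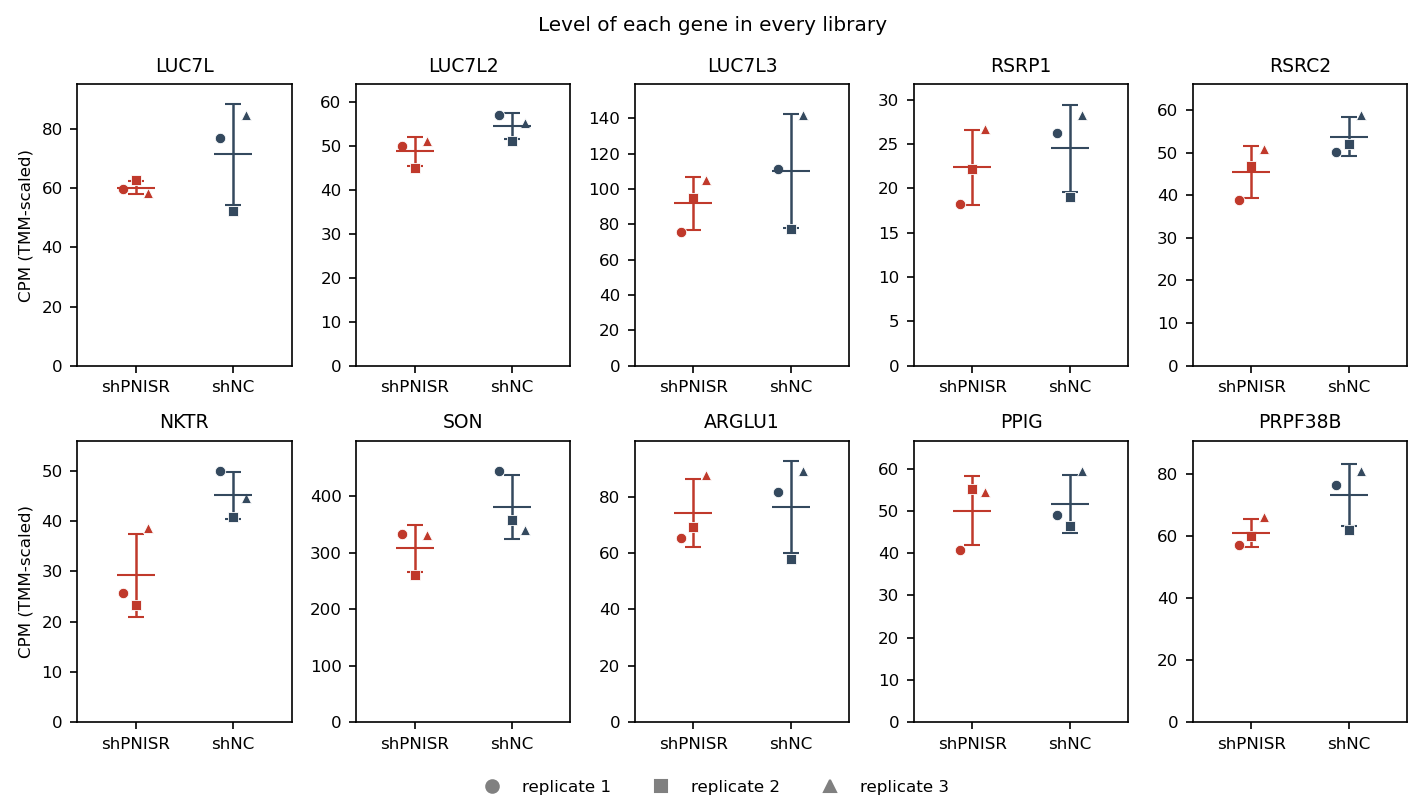
TMM-scaled CPM (y axis, from 0) of each of the 10 genes in the 3 shPNISR libraries (left, red) and the 3 shNC libraries (right, dark); marker shapes show the replicate number, bars the mean and standard deviation. NKTR lies at 23.2 to 38.6 CPM in shPNISR and 40.8 to 50.0 CPM in shNC, while ARGLU1 and PPIG have ranges that overlap widely.

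NKTR encodes a large cyclophilin, a peptidyl-prolyl isomerase, with a long RS-rich tail, first described on natural killer cells but transcribed in many tissues. Its level was 25.7, 23.2 and 38.6 CPM in shPNISR 1 to 3 and 50.0, 40.8 and 44.5 CPM in shNC 1 to 3. Every shPNISR library was below every shNC library, and shPNISR 3 came close to the lowest control, shNC 2. The raw counts were 434, 374 and 629 in shPNISR and 906, 631 and 668 in shNC. The log2 fold change was -0.63 ± 0.17 (SE, n = 3 each, 95% interval -0.98 to -0.28), or 64.6% of the shNC level (adjusted p = 0.0498 over 16102 genes in edgeR's two-sided test). The call lies at the threshold: it ended without shNC 1 (adjusted p = 0.198), without shPNISR 1 (0.25) and without shPNISR 2 (0.162), and with the GC and length correction (-0.41, adjusted p = 0.0554). Over 17 alternative settings NKTR was called in 9, with adjusted p from 0.000506 to 0.25 in edgeR, DESeq2 and limma.

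SON encodes a very large speckle protein that promotes the splicing of introns with weak splice sites. It stood at 333, 260.1 and 331 CPM in shPNISR and 445, 358 and 340.0 CPM in shNC. The groups did not overlap, but shPNISR 1 lay only just under shNC 3. Its log2 fold change of -0.31 ± 0.13 did not pass (adjusted p = 0.214, 95% interval -0.58 to -0.04).

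**Figure D2:**
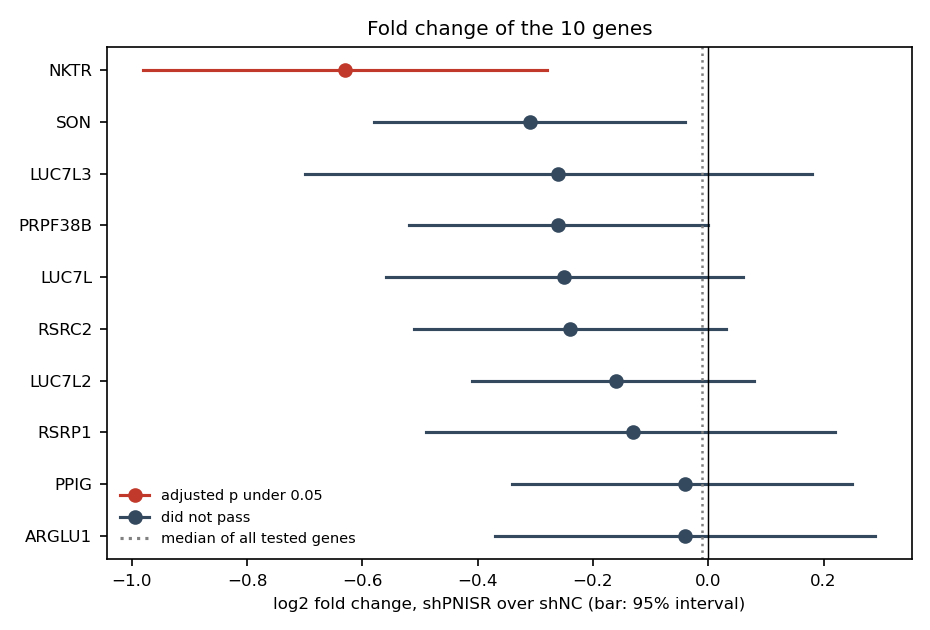
Fitted log2 fold change of each gene, shPNISR over shNC (x axis), with its 95% interval; red marks the gene with an adjusted p under 0.05, and the dotted line the median of all 16102 tested genes. The 10 points run from -0.63 for NKTR to -0.04 for ARGLU1 and PPIG, and the intervals of 8 genes reach or cross the dotted line.

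The upstream sequences of NKTR and SON, the pair with the lowest fold changes, are shown as the regulatory sequence next to the genes whose values differed most between the groups. They are the 250 bases before the RefSeq gene start in GRCh38.p14, 5′ to 3′ on the gene's strand. NKTR covers chr3:42600436-42600685 on the plus strand and SON chr21:33542788-33543037 on the plus strand, and the GENCODE gene starts of NKTR, at 42600614, and of SON, at 33542618, show that other annotated transcripts begin inside or upstream of these windows. Capitals mark the CCAAT box, CCAAT on either strand.
NKTR: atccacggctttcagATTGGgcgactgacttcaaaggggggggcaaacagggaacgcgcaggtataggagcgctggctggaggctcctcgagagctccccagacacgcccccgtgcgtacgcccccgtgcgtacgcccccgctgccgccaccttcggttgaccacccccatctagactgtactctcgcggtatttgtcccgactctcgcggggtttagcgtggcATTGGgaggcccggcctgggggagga
SON: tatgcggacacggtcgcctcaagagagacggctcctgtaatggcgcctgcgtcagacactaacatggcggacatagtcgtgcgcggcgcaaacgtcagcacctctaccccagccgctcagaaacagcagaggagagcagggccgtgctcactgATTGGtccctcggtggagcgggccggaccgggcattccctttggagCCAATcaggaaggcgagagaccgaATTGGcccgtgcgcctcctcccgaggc
RefSeq promoter entries were found for 9 of the 10 genes, 10 windows in all, since LUC7L2 has 2 starts. PPIG had no entry. CCAAT, read on both strands, was present in the windows of 6 of the 9 genes (LUC7L2, LUC7L3, RSRC2, NKTR, SON and PRPF38B), against 32.0% of 35116 promoter windows of the same length. GGGCGG, the GC box, was present in 5 (LUC7L2, LUC7L3, RSRP1, RSRC2 and ARGLU1), against 42.6%. TGACG, the core of the cyclic AMP response element, was present in 4 (LUC7L2, SON, ARGLU1 and PRPF38B), against 21.2%. TATAAA was found in 0 of the 9, against 10.7%. The member windows held a median of 23 CpG dinucleotides, against 11 over all windows. CCGGAAG was found in 1 (LUC7L2), against 8.5%, and 0 held the NRF1 motif, the ZBTB33-type motif or the E-box CACGTG, against 1.0%, 0.4% and 6.3%. The percentages are per window, and for each motif the number of member windows with it, out of 10, equalled the number of genes. These matches describe the letters of the windows and not sites in use.

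None of the LUC7-like genes passed. LUC7L, whose protein binds U1 snRNP, stood at 59.6, 62.8 and 58.3 CPM in shPNISR and 77.0, 52.4 and 84.9 CPM in shNC. The shPNISR libraries were within 5 CPM of each other, and the controls split, with shNC 2 below all 3 shPNISR libraries and shNC 1 and shNC 3 above them. The log2 fold change was -0.25 ± 0.15 (adjusted p = 0.403, 95% interval -0.56 to 0.06). LUC7L3, the largest of these proteins and also called CROP, stood at 75.4, 95.0 and 105 CPM in shPNISR and 111, 77.4 and 142 CPM in shNC. As for LUC7L, shNC 2 was the low control, and here it lay among the shPNISR libraries. The log2 fold change was -0.26 ± 0.20 (adjusted p = 0.537, 95% interval -0.70 to 0.18).

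LUC7L2, a gene that is deleted or mutated in some myeloid neoplasms, varied least in the controls. Its level was 50.1, 45.1 and 51.3 CPM in shPNISR and 57.2, 51.3 and 55.4 CPM in shNC. The groups met at shPNISR 3 and shNC 2, which differed by less than 0.1 CPM. The log2 fold change was -0.16 ± 0.12 (adjusted p = 0.493, 95% interval -0.41 to 0.08). The readthrough gene FMC1-LUC7L2 covers 21.8% of the exon bases of LUC7L2 and had 0 counts in each of the 6 libraries, so how shared reads were assigned is not known.

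Scaled to exon length as RPKM (CPM per kilobase of exon), the 3 LUC7-like genes together stood at 26.8, 29.0 and 30.5 RPKM in shPNISR and 35.2, 26.1 and 39.9 RPKM in shNC. Exon length was the union over all annotated transcripts, retained-intron ones included, so levels and shares between genes depend on the annotation. LUC7L made up 34.0 ± 2.68% of that sum in shPNISR and 34.1 ± 1.48% in shNC (SD, n = 3 each). LUC7L2 made up 26.9 ± 2.46% in shPNISR and 26.3 ± 4.60% in shNC. LUC7L3 made up 39.0 ± 4.10% in shPNISR and 39.6 ± 3.68% in shNC. The group means of each share differed by less than the SD within either group.

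Among the small RS-rich proteins, none passed. RSRC2, an arginine and serine rich coiled-coil protein, stood at 38.8, 46.8 and 50.8 CPM in shPNISR and 50.2, 52.1 and 58.9 CPM in shNC, so the groups overlapped only at shPNISR 3 and shNC 1. Its log2 fold change was -0.24 ± 0.13 (adjusted p = 0.341, 95% interval -0.51 to 0.03). RSRP1, an arginine and serine rich protein of little known function, had the lowest counts of the 10, with 18.2, 22.2 and 26.7 CPM in shPNISR and 26.2, 19.0 and 28.3 CPM in shNC. Its groups overlapped widely (log2 fold change -0.13 ± 0.17, adjusted p = 0.731). ARGLU1, an arginine and glutamate rich protein that acts in splicing and with the Mediator complex, stood at 65.2, 69.3 and 87.8 CPM in shPNISR and 81.6, 58.0 and 89.2 CPM in shNC. The lowest library was a control, and the interval of the difference ran from -0.37 to 0.29 on the log2 scale (adjusted p = 0.917).

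PPIG, an RS-rich cyclophilin that binds the tail of RNA polymerase II, stood at 40.7, 55.1 and 54.4 CPM in shPNISR and 49.1, 46.4 and 59.5 CPM in shNC. Only shPNISR 1 lay under the controls, and the log2 fold change was -0.04 ± 0.14 (adjusted p = 0.903, 95% interval -0.34 to 0.25). The 2 RS-rich cyclophilins among the 10 genes, NKTR and PPIG, had fitted values of -0.63 and -0.04, a difference that was not tested. PRPF38B, which carries a domain like that of the yeast splicing factor Prp38 and an RS-rich tail, stood at 57.1, 60.0 and 66.0 CPM in shPNISR and 76.5, 61.9 and 81.0 CPM in shNC. Every shPNISR library was below shNC 1 and shNC 3, while shNC 2 lay between shPNISR 2 and shPNISR 3. The log2 fold change was -0.26 ± 0.12 (edgeR, adjusted p = 0.279, 95% interval -0.52 to -0.00).

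Levels per kilobase of exon spanned more than a factor of 10 among the genes. SON was the most abundant, at 23.4 ± 3.14 RPKM in shPNISR and 28.9 ± 4.25 RPKM in shNC. LUC7L3, ARGLU1, PRPF38B and LUC7L followed, with group means from 9.75 to 12.8 RPKM in shPNISR and from 11.6 to 13.5 RPKM in shNC, and the ranges of neighbours in this order overlapped in both groups. LUC7L2 stood at 7.73 ± 0.520 RPKM in shPNISR and 8.65 ± 0.479 RPKM in shNC. PPIG stood at 6.79 ± 1.10 RPKM in shPNISR and 7.01 ± 0.940 RPKM in shNC, and its range overlapped that of LUC7L2 in shPNISR but not in shNC. RSRC2 was at 5.20 ± 0.699 RPKM in shPNISR and 6.15 ± 0.524 RPKM in shNC, overlapping PPIG in both groups. RSRP1 was at 3.29 ± 0.620 RPKM in shPNISR and 3.60 ± 0.714 RPKM in shNC, below the range of RSRC2 in both. NKTR was the lowest, at 1.68 ± 0.475 RPKM in shPNISR and 2.60 ± 0.266 RPKM in shNC. Its range lay clear of that of RSRP1 in shPNISR and overlapped it in shNC. NKTR has 17356 exon bases over all its annotated transcripts, the most of the 10, so a low RPKM still rested on 374 to 906 reads. Its last place depends on that length. By CPM NKTR had means of 29.2 in shPNISR and 45.1 in shNC, above RSRP1 at 22.4 and 24.5.

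**Figure D3:**
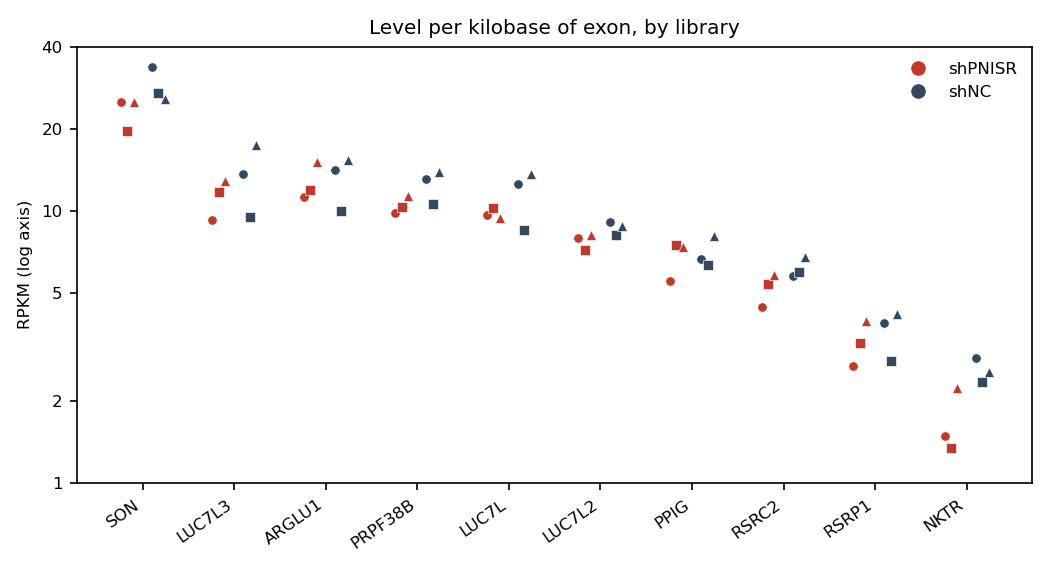
RPKM (CPM per kilobase of exon, log axis) of the 10 genes in order of their shNC mean, with shPNISR libraries left (red) and shNC libraries right (dark) and marker shapes for the replicate number as circle, square and triangle for 1, 2 and 3. SON stands above the rest at 19.7 to 25.2 RPKM in shPNISR and 25.8 to 33.8 RPKM in shNC, and NKTR is lowest.

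The 10 genes together took 0.0745%, 0.0723% and 0.0903% of all counts in shPNISR 1 to 3 and 0.103%, 0.0814% and 0.0982% in shNC 1 to 3. The groups overlapped, since shNC 2 lay below shPNISR 3. SON had the most counts of the 10 in each library, from 5106 of 14772 in shNC 3 to 5534 of 12631 in shNC 2. The share also moved with the other genes. SON stood at 333 CPM in shPNISR 1 and 340.0 CPM in shNC 3, where the share was 0.0745% and 0.0982%. Across the 6 libraries 44 of the 45 pairs of these genes had a Pearson correlation above 0, with a median of 0.69 and a range of -0.28 to 0.95, values that share library, depth and base composition. PRPF38B followed the mean of the other 9 most closely (r = 0.98) and SON least (r = 0.42). The highest library was a control for all 10 genes, shNC 3 for 7 and shNC 1 for 3. The lowest was shPNISR 1 for 5, shPNISR 2 for 3 and shNC 2 for 2 (LUC7L and ARGLU1). Neither these library counts nor the pair correlations were computed for all tested genes. With 44 of 45 pairs correlated above 0, the 10 genes are not separate observations. Relative to the mean of shNC 1 and shNC 3, the genes had a median log2 difference of -0.32 in shPNISR and -0.28 in shNC 2, against -0.02 and 0.00 over all tested genes.

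Without shNC 2, 4 of the 10 genes were called lower, against 4.52% of the genes tested then. They were NKTR (-0.70 ± 0.18, adjusted p = 0.0227), LUC7L (-0.43 ± 0.11, 0.0179), LUC7L3 (-0.46 ± 0.14, 0.0397) and PRPF38B (-0.37 ± 0.12, 0.0415, edgeR). The largest shifts of shNC 2 itself from the other 2 controls were in LUC7L3 (-0.70), LUC7L (-0.62), ARGLU1 (-0.56) and RSRP1 (-0.51), while LUC7L2, RSRC2 and SON differed there by -0.13, -0.06 and -0.12.

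**Figure D4:**
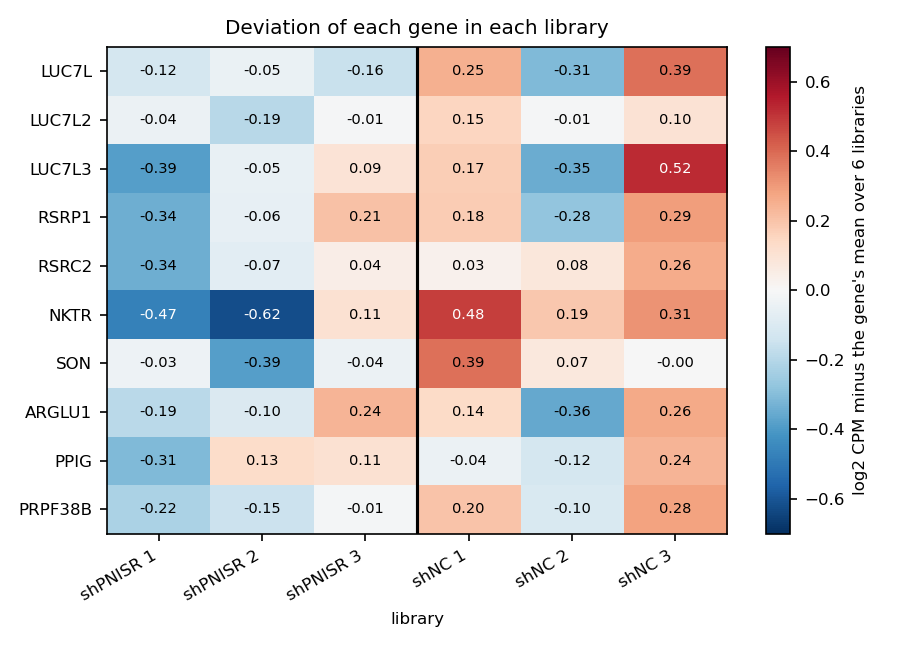
Log2 CPM of each gene in each library minus the gene's mean over the 6 libraries, shPNISR left of the line and shNC right of it; blue is below and red above the mean. In shNC 2 LUC7L, LUC7L3, RSRP1 and ARGLU1 lie at -0.31, -0.35, -0.28 and -0.36, while NKTR lies at 0.19.

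The genes share features other than the names they were chosen by. All 10 have more exon bases than the median of tested protein-coding genes, with a median of 7086 against 5122. Their longest transcripts have a median GC content of 40.9%, against 48.8%, and 8 of the 10 lie below that median. At least 1 annotated retained-intron transcript exists for 9 of the 10 (all but PRPF38B), against 56.5% of 13510 tested protein-coding genes, with 13 such transcripts for NKTR, 8 for RSRC2 and 7 for LUC7L. At least 1 annotated transcript subject to nonsense-mediated decay exists for 8 of the 10 (all but ARGLU1 and PRPF38B), against 41.8%.

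GC content moved with the fold change over all genes. With the tested genes cut into 10 equal bins by GC content, the median log2 fold change was -0.15 in the bin of lowest GC (27.8% to 38.8%) and 0.18 in the bin of highest GC. The same bins had medians of -0.17 and 0.11 when shNC 2 was set against the mean of shNC 1 and shNC 3. NKTR, LUC7L3 and PPIG lie in the bin of lowest GC, LUC7L2 and ARGLU1 in the next, RSRC2 and PRPF38B in the one after it, and SON, RSRP1 and LUC7L in the middle bins. By exon length the medians ran from 0.10 in the shortest bin to -0.13 in the longest, which holds NKTR and SON. With each library corrected for both properties, the median of the 10 genes was -0.14, 8 of 10 values lay below 0, and none of the 10 was called, against 1.30% of tested genes called lower. LUC7L was at -0.32 ± 0.16 (adjusted p = 0.317), SON at -0.24 ± 0.10 (0.207), LUC7L3 at -0.09 ± 0.16 (0.824) and LUC7L2 at -0.03 ± 0.10 (0.894, edgeR). ARGLU1 and PPIG had values above 0 there, 0.08 ± 0.13 (adjusted p = 0.789) and 0.15 ± 0.11 (0.489). With shNC 2 also left out, LUC7L (-0.52, adjusted p = 0.00142), NKTR (-0.46, 0.00561) and SON (-0.32, 0.0372) were called lower. In that setting 1439 of 16500 tested genes were called lower, against 210 of 16102 with the correction and all 6 libraries.

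**Figure D5:**
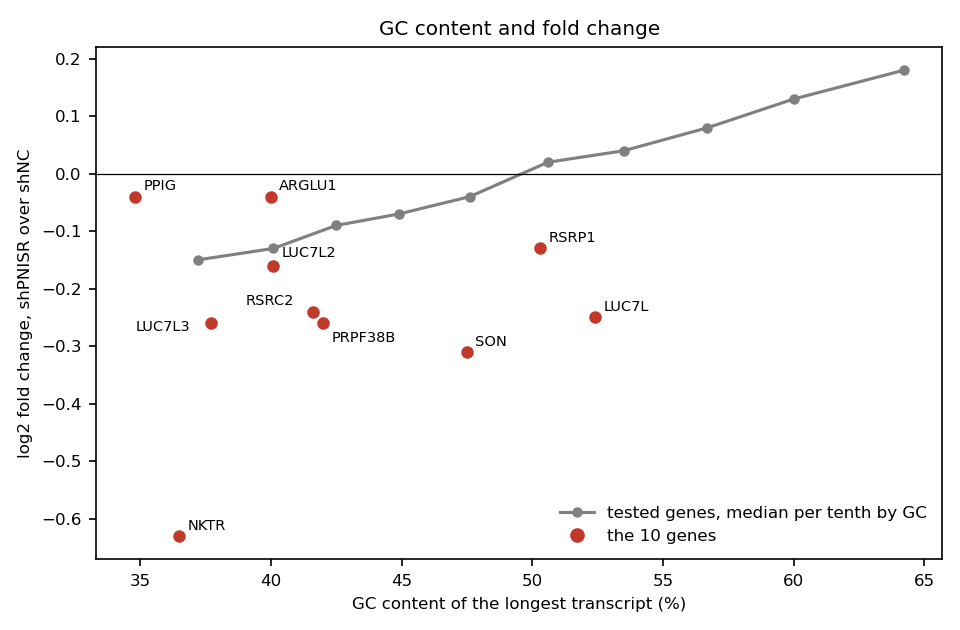
Log2 fold change, shPNISR over shNC (y axis), against the GC content of the longest annotated transcript (x axis, percent); grey points are medians of the tested genes in 10 equal bins by GC, red points the 10 genes. The grey line runs from -0.15 to 0.18, and all but PPIG and ARGLU1 of the 10 genes lie below it.

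Genes that work beside these were followed as 4 lists. PRPF38A and SNRNP27 stand in 2 of them. Of 18 tested U1 snRNP proteins and their partners, 1 fell, none rose and 17 did not pass. Of all tested genes 0.832% were called lower and 2.30% higher. In this list 12 values were below 0, against 52.1% of all tested genes, and the median was -0.09, against -0.01. At an unadjusted p under 0.05 in edgeR 4 of the 18 were lower and 1 higher, against 7.79% and 9.98% of all tested genes, and limma voom called 0. Of these 18 genes 2 had no overlap between groups with shPNISR lower and 1 with shPNISR higher, against 9.58% and 11.5% of all tested genes. With the GC and length correction 1 of the 18, SNRPD3, was called lower, against 1.30% of tested genes. The gene that fell without that correction was TIA1, an RNA-binding protein that helps U1 snRNP onto weak 5′ splice sites. It stood at 28.0, 30.6 and 34.1 CPM in shPNISR and 44.8, 36.8 and 53.1 CPM in shNC, without overlap (-0.54 ± 0.14, edgeR, adjusted p = 0.0445). The TIA1 call was lost on leaving out shNC 1, shNC 3 or each shPNISR library in turn (adjusted p from 0.0843 to 0.25) and with the GC and length correction (-0.36, adjusted p = 0.0889). It was also lost in limma voom (adjusted p = 0.0597), with upper-quartile scaling (0.0584), library totals (0.0879), the filter at a mean of 1 CPM (0.0523) and dispersions not made robust (0.0561), so TIA1 was called in 6 of 17 alternatives. Of 34 other genes for proteins with RS-rich regions none passed and 29 were below 0, against 52.1% of all tested genes. Their median was -0.24, the same as for the 10 genes. At an unadjusted p under 0.05 in edgeR 11 of these 34 were lower and 0 higher, against 7.79% and 9.98% of all tested genes, and limma voom called 0. DESeq2 called 1 of the 34 lower, CDK13, against 1.52% of the genes it tested. With the GC and length correction edgeR called 1 lower, SCAF4, against 1.30%. The groups did not overlap with shPNISR lower in 5 of the 34 and with shPNISR higher in 0, against 9.58% and 11.5%. The nearest to the threshold in edgeR was CDK13, a kinase of RNA polymerase II, at 37.3 ± 1.87 CPM in shPNISR and 51.5 ± 8.24 CPM in shNC (adjusted p = 0.0626). SCAF8, which binds the tail of RNA polymerase II, was at 40.9 ± 2.11 CPM in shPNISR and 52.1 ± 5.14 CPM in shNC (adjusted p = 0.129).

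Of 15 other cyclophilins none passed and 13 were below 0, against 52.1% of all tested genes, and the median was -0.10. PPIH, a cyclophilin of the tri-snRNP, was at 48.5 ± 4.99 CPM in shPNISR and 64.7 ± 4.09 CPM in shNC, without overlap (-0.42 ± 0.12, adjusted p = 0.0659). At an unadjusted p under 0.05, 2 of the 15 were lower (PPIH and RANBP2) and 0 higher, against the same shares of 7.79% and 9.98%, and limma voom called 0. PPIH was the 1 gene of the 15 called lower by DESeq2 and, in edgeR, with the GC and length correction (adjusted p = 0.0185). Of all tested genes 1.52% and 1.30% were called lower in these settings. The groups did not overlap with shPNISR lower in 2 of the 15 and with shPNISR higher in 0, against 9.58% and 11.5% of all tested genes. RANBP2, a nuclear pore protein with a cyclophilin domain, was at 98.5 ± 12.7 CPM in shPNISR and 125 ± 13.6 CPM in shNC (adjusted p = 0.131). Of 16 proteins that act beside PRPF38 proteins when the spliceosome is activated, none passed. Of these 10 were below 0, against 52.1% of all tested genes, and the median was -0.07. At an unadjusted p under 0.05 in edgeR 2 of the 16 were lower (PRPF3 and PRPF4) and 0 higher, against 7.79% and 9.98%, and DESeq2 and limma voom called 0. The GC and length correction also called 0. Groups did not overlap in 2 of the 16 with shPNISR lower and in 0 with shPNISR higher, against 9.58% and 11.5%. PRPF4 was at 99.7 ± 4.67 CPM in shPNISR and 124 ± 14.2 CPM in shNC (adjusted p = 0.147), and PRPF3, its tri-snRNP partner, at 60.2 ± 3.87 CPM in shPNISR and 75.4 ± 11.5 CPM in shNC (adjusted p = 0.179). Without shNC 2, 4.52% of all tested genes were called lower, against 0.832% with all 6 libraries. The list genes called lower then were 5 of the 18 in the U1 list (SNRPD3, PRPF39, TIA1, DDX5 and DDX17) and 10 of the 34 in the RS-rich list (among them RBM39, PNN, TRA2A and TRA2B). So were 2 of the 15 cyclophilins (PPIH and RANBP2) and 2 of the 16 in the spliceosome list (PRPF3 and PRPF4). In that setting 0 were called higher in any of the lists, against 1284 of all 16500 tested genes.

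The genes most like the mean profile of the 10, over 6 libraries and among genes with a mean of at least 5 CPM, were MDFIC (r = 0.997), SIKE1 (0.995), CREBZF (0.993), UPF2 (0.993) and AP5M1 (0.992). UPF2, a core factor of nonsense-mediated decay, was at 33.0 ± 3.25 CPM in shPNISR and 36.7 ± 3.89 CPM in shNC, and CREBZF, a leucine zipper transcription factor, at 41.8 ± 6.76 CPM in shPNISR and 58.1 ± 13.5 CPM in shNC. MDFIC, SIKE1 and AP5M1 had means of 13.1, 38.4 and 27.6 CPM in shPNISR and 16.1, 49.6 and 31.9 CPM in shNC. PNISR had a correlation of 0.78 with the same profile.

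The genes lie on 9 chromosomes in GRCh38 (GENCODE release 29), and RSRP1 and PRPF38B share chromosome 1. NKTR (ENSG00000114857) spans 42600614 to 42648741 on chromosome 3, and its exons share 121 bases, 0.7% of its exon bases, with SEC22C on the other strand, which had a mean of 1252.3 counts in shPNISR and 1317.0 in shNC. SON (ENSG00000159140) spans 33542618 to 33577481 on chromosome 21 and shares 275 exon bases with GART and 307 with DONSON, both on the other strand. LUC7L (ENSG00000007392) spans 188969 to 229463 on chromosome 16, LUC7L2 (ENSG00000146963) 139340359 to 139423457 on chromosome 7 and LUC7L3 (ENSG00000108848) 50719544 to 50756213 on chromosome 17. RSRC2 (ENSG00000111011) spans 122503458 to 122527000 on chromosome 12, ARGLU1 (ENSG00000134884) 106541673 to 106568164 on chromosome 13 and PPIG (ENSG00000138398) 169584340 to 169641406 on chromosome 2. On chromosome 1 PRPF38B (ENSG00000134186) spans 108692323 to 108701803 and RSRP1 (ENSG00000117616) 25242237 to 25338213. RSRP1 shares 297 exon bases, 4.4% of its own, with TMEM50A on the other strand, which had a mean of 2266.7 counts in shPNISR and 2111.0 in shNC. On its own strand it shares 426 exon bases, 6.3%, with the unprocessed pseudogene ENSG00000259984, which had a mean of 1.3 counts in shPNISR and 1.0 in shNC. Whether the counting used strand is not stated in the labels, and reads in stretches shared with the other strand cannot be told apart without it. Strand does not separate reads in the stretch that RSRP1 shares with the pseudogene.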

How the data were processed

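RNA sequencing libraries of HCT-8 cells, 3 with shPNISR and 3 with shNC, were compared from the read counts per Ensembl gene ID that the authors deposited, which are not normalized. The submitters' processing notes name HISAT2 2.0.4 and GRCh38. Not given in the sources used here are the counting tool, its annotation and whether it used strand. Columns were matched to samples by title, and 0 were left out. Every pair of libraries in a group differed beyond counting error, and all 6 entered as separate samples.

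The members, lists, tests and named genes were chosen with earlier results of these data known. Named were the 10 genes, PNISR, and from each list the genes that passed or the 2 nearest to passing. Genes called without shNC 2, and examples with values among the most similar genes, were picked after values were seen. Genes were filtered with filterByExpr (minimum count 10, minimum total 15), scaled by TMM, and tested with edgeR 4.0.16 in R 4.3.3 (robust quasi-likelihood, two-sided, Benjamini-Hochberg threshold 0.05 over all tested genes). The method was tested on simulated data. Standard errors are the fold change over the root of the F statistic. CPM values are TMM-scaled, and RPKM values divide them by union exon length from GENCODE release 29 on GRCh38. Correlations used log2 CPM (prior count 2). GC and length offsets came from loess (span 0.4), with values for 99.3% of tested genes. Alternatives were other scalings, filters, DESeq2 1.42.0, limma 3.58.1 voom, no robust dispersion, a replicate block and leaving out each library. Member counts per library ran from 294 to 8058, a counting error of 5.83% to 1.11%. Promoter windows came from RefSeq, GRCh38.p14. Figures used matplotlib 3.10.9.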

Additional observations from a re-analysis of the deposited data

How the results depend on the processing

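With all 6 libraries 371 genes were called higher, 134 lower, and 1 of the 10 genes (NKTR) lower. Leaving out 1 library at a time gave 133 to 1284 genes higher, 30 to 746 lower, and 0 to 4 of the 10 genes lower: 4 without shNC 2, 0 without shNC 1, shPNISR 1 or shPNISR 2. The 10 genes also had 0 lower calls with scaling by library totals or upper quartiles, with a filter at a mean of 1 CPM, with dispersions not made robust, and with the GC and length correction, but 3 with that correction and shNC 2 left out. Across all 17 alternatives 0 of the 10 were called higher. In counts over all genes, library totals gave 71 lower, no low-count filter 642 higher and 354 lower, DESeq2 231 lower, the GC and length correction 210 lower, and the same without shNC 2 gave 1146 higher and 1439 lower; the cause was not tested. NKTR was called in 9 of the 17 alternatives (adjusted p from 0.000506 to 0.25) and kept its direction in all 17, as did LUC7L, LUC7L2, LUC7L3, RSRC2, SON and PRPF38B. Directions turned for ARGLU1 without shNC 1 (0.01), shNC 3 (0.08) or shPNISR 1 (0.05) and with the GC and length correction (0.08), within a leave-one-out range of -0.21 to 0.08. They turned for PPIG without shNC 3 (0.07) or shPNISR 1 (0.09), with the correction (0.15) and with it and without shNC 2 (0.13), within a leave-one-out range of -0.12 to 0.09. RSRP1 turned to 0.00 without shPNISR 1 (range -0.29 to 0.00). With the replicate number as a block 390 genes were higher and 118 lower, and NKTR was still called (-0.66, adjusted p = 0.0185). The labels do not say that a number marks a shared culture, so the numbers were not taken to pair the libraries. Deviations from the group mean correlated at 0.119, -0.0814 and -0.15 between same-numbered libraries 1, 2 and 3. Between groups, libraries of unlike number had -0.226 to 0.307. Deviations within a group sum to 0, so these values cannot decide on pairing. Where a library was left out, edgeR pooled the spread of the remaining 5. Counting error was at most 5.83% for these genes per library, and the coefficient of variation within a group was 3.84% (LUC7L in shPNISR) to 29.3% (LUC7L3 in shNC).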
